A study of Mus musculus with 12 samples.

Results

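Iron handling genes are the genes whose proteins carry iron to cells, take it up, store it, oxidize it or release it. Here 10 of them were followed in mouse retina: transferrin (Trf), transferrin receptor (Tfrc), Steap3, Slc11a2, ceruloplasmin (Cp), hephaestin (Heph), ferroportin (Slc40a1), the ferritin heavy and light chains (Fth1 and Ftl1) and heme oxygenase 1 (Hmox1). They were chosen by symbol, through the Ensembl identifier of each row, out of 54532 gene identifiers in the tables. All 10 were found, and all 10 were among the 18299 genes with enough counts to be tested. RNA-seq had been run on retinas of wild type female C57BL/6 mice of 13 weeks, in 4 groups of 3 libraries. SHAM mice were the controls. MOG mice had been immunized with the myelin peptide MOG35-55 in complete Freund's adjuvant, with pertussis toxin, which induces experimental autoimmune encephalomyelitis (EAE) with optic neuritis (ON). GB20 and GV16 mice had been immunized in the same way. Weeks later they were needled repeatedly under xylazine and ketamine, at the acupoint GB20 or at the control acupoint GV16, before the retinas were taken. The sources used here do not say whether SHAM mice received adjuvant or toxin, whether MOG mice were anesthetized without needling, or whether 1 library pools several mice. The immunization, adjuvant and toxin can therefore not be told apart in MOG vs. SHAM, nor needling and anesthesia in the comparisons of needled groups with MOG.

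Iron enters most cells as ferric iron on transferrin, which is bound by the transferrin receptor, reduced in the endosome by Steap3 and passed into the cytosol by the divalent metal transporter Slc11a2. Iron that is not used is kept in ferritin shells built of heavy and light chains, or leaves the cell through ferroportin, after which ceruloplasmin or hephaestin oxidizes it so that transferrin can bind it. Iron regulatory proteins couple these steps when iron is scarce: they bind iron-responsive elements (IREs), hairpins that block translation from a 5′ UTR and stabilize the mRNA from a 3′ UTR. In the retina, ceruloplasmin and hephaestin are known to act together in iron export, and their combined loss in mice leads to iron overload and retinal degeneration.

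The hairpins are shown because they divide the genes into those whose mRNA level is known to be set through an IRE and those in which an IRE acts on translation, which RNA-seq does not see. GENCODE vM21 transcripts on GRCm38, the assembly also called mm10 that the submitters' processing notes name, were searched for a loop CAGTGN with a last base other than G, a stem of 5 paired bases on both sides with G-T pairs allowed and at most 1 mismatch, and a C bulge before the stem. Only the transcript strand was searched. Of the 10 genes, 6 held at least 1 match, with 9 matches in all. The fully paired ones follow, 5′ to 3′ on the transcript strand, with the bulged C and the 6 loop bases in capitals.
Fth1 5′ UTR, chr19:9982732-9982761, plus strand: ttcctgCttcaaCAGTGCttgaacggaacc
Ftl1 5′ UTR, chr7:45459778-45459807, minus strand: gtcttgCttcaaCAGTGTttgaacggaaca
Slc40a1 5′ UTR, chr1:45925464-45925493, minus strand: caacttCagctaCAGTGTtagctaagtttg
Tfrc 3′ UTR, chr16:32631219-32631248, plus strand: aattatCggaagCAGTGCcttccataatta
Tfrc 3′ UTR, chr16:32631598-32631627, plus strand: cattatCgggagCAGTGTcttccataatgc
Tfrc 3′ UTR, chr16:32631663-32631692, plus strand: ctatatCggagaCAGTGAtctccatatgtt
Tfrc 3′ UTR, chr16:32631710-32631739, plus strand: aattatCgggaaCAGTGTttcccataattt

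The other matches had 1 stem mismatch each. One lay in the 3′ UTR of the transcript Slc11a2-205 (chr15:100395152-100395181, minus strand), and the other in the coding sequence of Heph (chrX:96470785-96470814, plus strand). Among 21866 protein-coding genes, a fully paired match was found in the 5′ UTR of 0.105% and in the 3′ UTR of 0.457%. With 1 mismatch allowed these shares were 0.654% and 3.04%. The Fth1 and Ftl1 hairpins had the same 5 bases before the loop and the same 5 bases after it. A match of letters describes the sequence only, and the counts are per gene, so isoforms of Slc11a2 with and without the hairpin were not separated.

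The libraries held between 15860278 and 19194280 counted fragments. Levels of different genes were compared in the FPKM values that the authors deposited, which are fragments scaled to the length of the gene and to the size of the library. Changes of a gene between groups were tested on the deposited counts with edgeR over all 12 libraries, with Benjamini-Hochberg adjustment over all 18299 genes, and a gene was called at an adjusted p under 0.05. For single libraries the counts are given as CPM, counts scaled to library size, after TMM scaling. RNA came from whole retina, so fewer cells of a type and less RNA per cell cannot be told apart. The marker genes of rods and cones were expressed in every library. Of 10 markers of retinal ganglion cells (RGC), 10 were called lower in MOG vs. SHAM (summed 846 to 959 CPM in SHAM and 471 to 568 CPM in MOG). Of 10 genes of gliosis, 8 were called higher and all 10 had fitted changes above 0 (summed 149.5 to 179 CPM in SHAM and 313 to 389 CPM in MOG). Of 12 tested markers of microglia and macrophages, 2 were called higher and all 12 had fitted changes above 0 (summed 25.7 to 35.0 CPM in SHAM and 44.8 to 50.4 CPM in MOG). Among all genes tested, 1.34% were called in MOG vs. SHAM. Library MOG replicate 2 stood apart in myelin genes, with 82 counts of Mobp where the other 11 libraries had at most 3.

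Per length, storage genes stood far above the others. Mean FPKM over the 12 libraries was 407 for Fth1 and 59.2 for Ftl1, and Fth1 lay at the percentile 99.8 of all tested genes. Tfrc followed with a mean of 32.8 FPKM, Cp with 17.5 FPKM and Slc11a2 with 10.6 FPKM. Each of these 5 genes lay above the next one in the order in all 12 libraries, with no overlap of their ranges. The other genes were low: Hmox1 had a mean of 1.88 FPKM, Heph 1.20 FPKM, Steap3 1.18 FPKM, Trf 0.824 FPKM and Slc40a1 0.581 FPKM. In the annotation, 63.5% of the exonic bases of Trf and 34.6% of those of Ftl1 overlap other genes. Reads there may not have been counted, so the levels of Trf and Ftl1 and their places in the order may be understated. Hmox1 lay above Heph in all 12 libraries, although their ranges over the libraries overlapped. The order of the lower neighbours was less even: Heph lay above Steap3 in 7 of 12 libraries, Steap3 above Trf in 11 and Trf above Slc40a1 in 10. Cp, the secreted or membrane-anchored oxidase, was thus present at a far higher FPKM than Heph, the other oxidase, in every library. Trf varied most, 3.46-fold in FPKM between the highest and the lowest library, whereas the other 9 genes varied between 1.25-fold (Ftl1) and 1.81-fold (Hmox1).

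**Figure D1:**
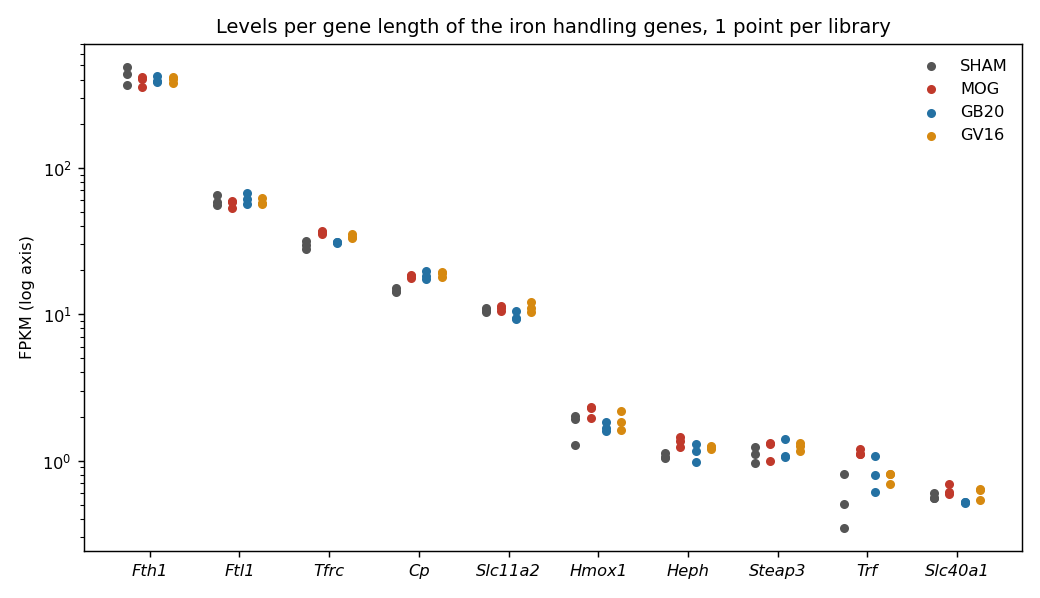
FPKM (vertical log axis) of the 10 iron handling genes, ordered by their mean, with 1 point for each of the 12 libraries, coloured by group. Fth1 lies between 356 and 488 FPKM and Slc40a1 between 0.511 and 0.695 FPKM. The 5 genes on the left do not overlap, while neighbours among the 5 on the right do.

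To see which steps of iron handling changed after immunization, MOG was compared with SHAM. Of the 10 genes, 3 were called and all 3 were higher in MOG: Trf, Tfrc and Cp. Of all genes tested, 1.34% were called in this comparison. In 4 of the 10 genes, these 3 and Heph, all MOG libraries lay above all SHAM libraries, beside 16.2% of all genes with no overlap in either direction. The median log2 fold change of the 10 genes was 0.22, and that of all genes -0.00. The ferritin chains, Slc40a1, Slc11a2, Steap3 and Hmox1 were not called.

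Among the uptake genes, Trf encodes the iron carrier transferrin (ENSMUSG00000032554, chr9:103204001-103230444, minus strand). SHAM libraries had 1.695, 2.71 and 1.17 CPM of Trf, and MOG libraries 3.69, 3.75 and 4.02 CPM. All MOG libraries lay above the highest SHAM library, and the SHAM libraries were widely spread. Trf was 2.06-fold higher in MOG (log2 fold change 1.04 ± 0.26, SE, adjusted p = 0.0406). The 95% interval reached from 42.6% to 198% higher. These levels rest on 21 to 46 counts per library in SHAM and on 61 to 67 in MOG. The call was lost without SHAM replicate 1 (adjusted p = 0.166), SHAM replicate 3 (0.108), MOG replicate 1 (0.0788), MOG replicate 2 (0.144), MOG replicate 3 (0.183), GV16 replicate 2 (0.0522) or GV16 replicate 3 (0.0529), with log2 fold changes of at least 0.79. It was also lost on the 6 libraries of the comparison alone, with DESeq2 (0.0918) and with edgeR (0.067). In limma the adjusted p was 0.27 on log2(FPKM + 1), where the log2 change was 0.47, and 0.297 on log2(FPKM + 0.1), where it was 0.99.

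In the annotation, 63.5% of the exonic bases of Trf are shared with Gm20425 on the same strand, so reads there could have been counted for either gene or for none, and Gm20425 had 0 or 1 counts per library. Markers of pigment epithelium, which is known to make transferrin, were also higher in MOG by their sum. Their 10 genes summed to between 24.2 and 32.4 CPM in SHAM and between 37.1 and 41.5 CPM in MOG, although 0 of the 9 tested were called by edgeR. Lrat, a marker of this list, was among the 5 genes most like Trf over the libraries. Its levels were 1.03, 1.29 and 0.832 CPM in SHAM and 2.07, 2.40 and 2.04 CPM in MOG, and it was not called (log2 fold change 1.04, adjusted p = 0.081). The part of these cells in the Trf result was not tested. Of 10 genes of oligodendrocytes and myelin, 6 were tested and 1, Cnp, was called. Cnp, an enzyme of myelinating cells named here after its values were seen, was higher in MOG (24.5 to 25.5 CPM) than in SHAM (16.4 to 18.7 CPM), GB20 (15.8 to 17.7 CPM) and GV16 (13.9 to 16.8 CPM). The sum of the 10 lay between 67.3 and 71.3 CPM in SHAM and between 73.8 and 106 CPM in MOG, with the highest value in MOG replicate 2. The part of these cells in the Trf result was not tested either.

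Tfrc encodes the receptor that binds transferrin (ENSMUSG00000022797, chr16:32608920-32632794, plus strand), and its mRNA carries the 4 hairpins shown above. SHAM libraries had 187, 173 and 197 CPM, and MOG libraries 227, 230.2 and 219.5 CPM. The groups did not overlap. Tfrc was 1.22-fold higher in MOG (log2 fold change 0.28 ± 0.07, SE, adjusted p = 0.0337), with a 95% interval from 10.4% to 34.0% higher. In this comparison longer genes were higher in MOG in general (Spearman correlation of log2 fold change with exon length 0.343 over 12271 genes, which are not independent replicates), and with that trend removed the log2 fold change of Tfrc was 0.26 (adjusted p = 0.0158). The call was lost without SHAM replicate 1 (adjusted p = 0.121), SHAM replicate 2 (0.106), MOG replicate 1 (0.0782), MOG replicate 2 (0.172), MOG replicate 3 (0.102) or GB20 replicate 3 (0.0503), with edgeR on the 6 libraries (0.123) and with limma on log2(FPKM + 1) or log2(FPKM + 0.1) (0.0622 and 0.0739).

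The other uptake genes were not called. Steap3, the endosomal iron reductase, had 7.14, 5.53 and 6.38 CPM in SHAM and 7.50, 5.78 and 7.57 CPM in MOG, with overlapping groups. Slc11a2, which carries ferrous iron across the endosomal membrane, lay at 69.0 ± 2.3 CPM (SD, n = 3) in SHAM and 70.1 ± 2.9 CPM in MOG. Its log2 fold change was 0.02, with a 95% interval from -8.80% to 12.9%, and it turned to -0.00041 with the length trend removed.

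Among the genes of iron release, Cp encodes the copper oxidase ceruloplasmin (ENSMUSG00000003617, chr3:19957054-20009145, plus strand). SHAM libraries had 140.2, 138 and 146 CPM of Cp, and MOG libraries 177, 169.9 and 177 CPM. The groups were well apart and the spread within each was small, with coefficients of variation of 2.80% in SHAM and 2.36% in MOG. Cp was 1.24-fold higher in MOG (log2 fold change 0.31 ± 0.07, SE, adjusted p = 0.0194), with a 95% interval from 12.2% to 36.4% higher. The call was lost without SHAM replicate 1 (adjusted p = 0.0967), MOG replicate 1 (0.0572), MOG replicate 2 (0.0592) or MOG replicate 3 (0.123), while the log2 fold change stayed between 0.29 and 0.33 without any 1 of the 12 libraries. It was also lost with edgeR on the 6 libraries (0.0588) and with limma on log2(FPKM + 1) or log2(FPKM + 0.1) (0.0644 and 0.072). Cp has the longest exons of the 10 genes (9566 bases), so the length trend given for Tfrc bears on it. Over the 13 alternatives other than a library left out, its log2 fold change lay between 0.25 and 0.33. The call held in 10 of them, the fit with the length trend removed included. The gliosis genes and the markers of microglia and macrophages named above moved in the same comparison. Among them Gfap, the filament protein of reactive glia, rose from 23.1 ± 3.3 CPM (SD, n = 3) in SHAM to 54.9 ± 3.1 CPM in MOG (adjusted p = 0.003). The 8 markers of Mueller cells, a retinal glia, summed to between 3975 and 4240 CPM in SHAM and between 3681 and 4074 CPM in MOG, with overlap. Of these 8, 1 was called higher and 4 had fitted changes above 0. Against MOG, the gliosis genes had a median log2 fold change of -0.22 in GB20 and -0.45 in GV16. For microglia and macrophages these medians were -0.02 and -0.009. The part of glia, microglia and macrophages in the Cp result was not tested.

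Heph, the membrane-bound relative of Cp, did not pass the threshold although its groups did not overlap. It had 8.23, 8.12 and 8.71 CPM in SHAM and 11.1, 9.65 and 10.4 CPM in MOG, a 1.25-fold difference (adjusted p = 0.281). The sizes for Cp and Heph were alike. Heph was measured with 124 to 199 counts per library and Cp with 2315 to 3421, and the part of depth in the missing call was not tested. Heph also has long exons (7662 bases), so the length trend bears on it. Over the 13 alternatives other than a library left out, its log2 fold change lay between 0.17 and 0.34. Slc40a1, the iron exporter, had 5.03, 5.06 and 5.44 CPM in SHAM and 5.37, 6.33 and 5.52 CPM in MOG, with overlapping groups (log2 fold change 0.15 ± 0.15, SE, adjusted p = 0.707).

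The storage genes had fitted changes below 0 in MOG and were not called. Fth1, the heavy chain with the iron-oxidizing site (ENSMUSG00000024661, chr19:9980598-9985098, plus strand), had 379, 426 and 322 CPM in SHAM and 361, 356 and 311 CPM in MOG. The lowest SHAM library lay among the MOG libraries. The log2 fold change was -0.13, with a 95% interval from -19.6% to 3.48% (adjusted p = 0.54). Ftl1, the light chain on which the iron core forms (ENSMUSG00000050708, chr7:45457944-45459884, minus strand), had 79.6, 87.5 and 75.6 CPM in SHAM and 80.1, 78.6 and 72.4 CPM in MOG, again with overlap. Processed copies of the ferritin genes took few counts: Fth-ps2 had 0.290% of the counts of Fth1 and Ftl1-ps1 1.68% of those of Ftl1. Of the exonic bases of Ftl1, 34.6% overlap other genes, mainly Gm10252 on the opposite strand, which had 1 to 11 counts per library.

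Hmox1, which frees iron from heme and is known as a marker of oxidative stress, had 3.57, 3.41 and 2.27 CPM in SHAM and 4.09, 3.44 and 4.02 CPM in MOG. The groups overlapped, and the log2 fold change of 0.32 ± 0.20 (SE) was not called (adjusted p = 0.517). With 41 to 73 counts per library, the 95% interval reached from -6.44% to 67.5%.

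**Figure D2:**
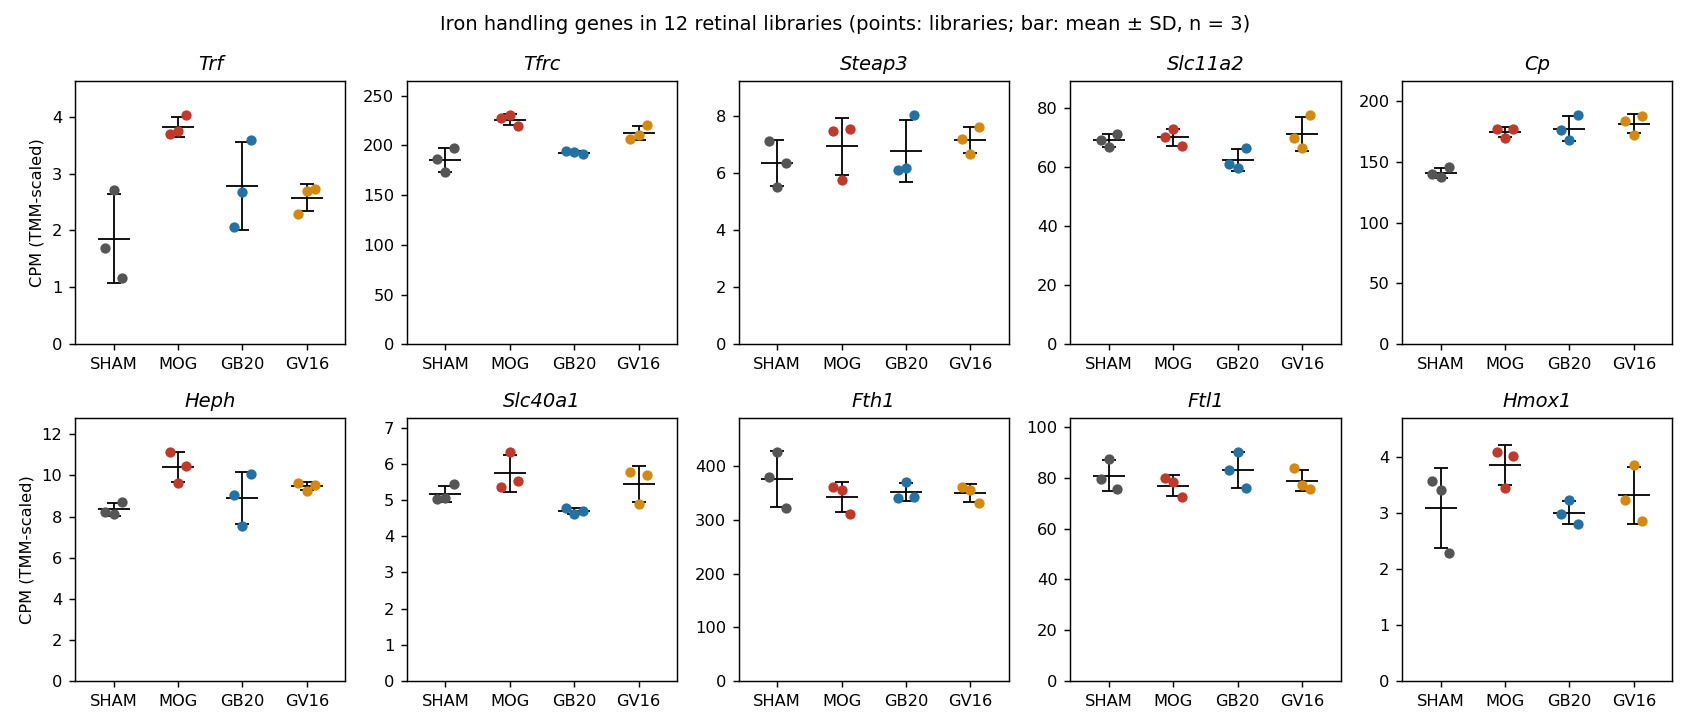
CPM after TMM scaling (vertical axes, each from 0) of the 10 iron handling genes in SHAM, MOG, GB20 and GV16. Points are the 3 libraries of a group, and the bars are the mean and SD. For Tfrc the MOG libraries (219.5 to 230.2 CPM) lie above the SHAM (173 to 197 CPM) and GB20 libraries (191 to 194 CPM), and for Cp the SHAM libraries (138 to 146 CPM) lie below those of all 3 immunized groups.

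To see whether needling changed these genes in immunized mice, GB20 was compared with MOG. None of the 10 genes was called by edgeR, beside 0.24% of all genes. At an unadjusted p under 0.05 there were 2, Tfrc and Slc11a2, beside 8% of all genes, and DESeq2 called 0 of the 10 on all 12 libraries and 1, Tfrc, on the 6 libraries of this comparison. The median log2 fold change of the 10 genes was -0.20 and that of all genes 0.00. In 5 of the 10, Trf, Tfrc, Slc11a2, Slc40a1 and Hmox1, all GB20 libraries lay below all MOG libraries, beside 15.7% of all genes with no overlap in either direction. MOG vs. SHAM and GB20 vs. MOG share the MOG libraries. Longer genes were lower in GB20 in general (Spearman correlation of log2 fold change with exon length -0.366 over 12271 genes), and with that trend removed the log2 fold changes of Tfrc, Slc11a2 and Slc40a1 were -0.21, -0.14 and -0.24.

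Tfrc had 194, 193 and 191 CPM in GB20, against 227, 230.2 and 219.5 CPM in MOG. The GB20 libraries lay closely together, inside the range of the SHAM libraries. The log2 fold change in GB20 vs. MOG was -0.23 ± 0.07 (SE, adjusted p = 0.296 in edgeR), with a 95% interval from -22.4% to -5.88%. DESeq2 on the 6 libraries gave an adjusted p of 0.0207 and on all 12 libraries 0.0675, and over all alternatives the adjusted p lay between 0.0207 and 0.746. In GB20 vs. SHAM Tfrc differed by a log2 fold change of 0.06, with a 95% interval from -5.70% to 14.5%.

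Slc11a2 was lowest in GB20, with 61.0, 59.7 and 66.6 CPM against 70.1, 72.9 and 67.2 CPM in MOG. The difference was -10.9% with a 95% interval from -19.99% to -0.884%, and was not called (adjusted p = 0.578). Slc40a1 had 4.79, 4.62 and 4.69 CPM in GB20, below all 9 other libraries. The log2 fold change against MOG was -0.29 ± 0.15 (adjusted p = 0.644). Trf had 2.06, 2.68 and 3.59 CPM in GB20, between the SHAM and MOG means and widely spread (log2 fold change -0.47 against MOG, adjusted p = 0.642). The pigment epithelium markers summed to between 36.9 and 43.2 CPM in GB20, which overlaps their sum in MOG.

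Cp did not differ between GB20 and MOG beyond its spread. GB20 libraries had 176, 168 and 188 CPM of Cp, which overlapped the MOG libraries, and the 95% interval of the difference reached from -7.76% to 11.98%. Against SHAM, Cp was 1.26-fold higher in GB20 (log2 fold change 0.33 ± 0.07, SE, adjusted p = 0.0332) and the groups did not overlap. It was the 1 gene of the 10 that was called in GB20 vs. SHAM, beside 0.344% of all genes. This call was lost without SHAM replicate 1 (adjusted p = 0.183), SHAM replicate 3 (0.0534), MOG replicate 3 (0.0615), or 1 of the GB20 libraries, replicate 1 (0.153) or replicate 3 (0.148), and with edgeR on the 6 libraries (0.125). It was also lost with limma on log2(FPKM + 0.1) and on log2(FPKM + 1), there with all genes or with those at a mean of at least 1 FPKM. The call held in 9 of the 13 alternatives other than a library left out. Libraries of GB20 and SHAM did not overlap in 3 of the 10 genes, Cp being higher and Slc11a2 and Slc40a1 lower in GB20, beside 12.7% of all genes.

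GV16 was compared with MOG in the same way. None of the 10 genes was called by edgeR or DESeq2, beside 0.164% of all genes by edgeR, and Trf was the 1 gene with an unadjusted p under 0.05, beside 5.3% of all genes. Trf had 2.30, 2.70 and 2.72 CPM in GV16, below all MOG libraries (fitted log2 change -0.57 ± 0.25, SE, adjusted p = 0.905). Heph was the other gene whose libraries did not overlap, with 9.62, 9.26 and 9.54 CPM in GV16, and 12.6% of all genes had no overlap in this comparison. Tfrc had 207, 211 and 221 CPM in GV16, overlapping MOG, and the 95% interval of the difference reached from -14.4% to 3.88%. The median log2 fold change of the 10 genes was -0.02.

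Against SHAM, Cp was again the 1 gene of the 10 that was called in GV16, beside 0.656% of all genes. GV16 libraries had 184, 173 and 188 CPM of Cp, all above the SHAM libraries (1.29-fold, log2 fold change 0.36 ± 0.07, SE, adjusted p = 0.00956). The call was lost without SHAM replicate 1 (adjusted p = 0.0734) or GV16 replicate 3 (0.106), and with edgeR on the 6 libraries (0.053). It was also lost with limma on log2(FPKM + 1) or log2(FPKM + 0.1), and held in 10 of the 13 alternatives other than a library left out. Tfrc and Heph also lay above all SHAM libraries without being called (adjusted p = 0.237 and 0.654), and 14.5% of all genes had no overlap here. Cp was thus higher than in SHAM in all 9 libraries of immunized mice, from 168 to 188 CPM against at most 146 CPM. These comparisons share the SHAM libraries.

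GB20 and GV16 were compared directly to test the difference between the acupoints. None of the 10 genes was called by edgeR, DESeq2 or limma-voom, beside 0.00546% of all genes by edgeR. At an unadjusted p under 0.05 there were 2, Tfrc and Slc11a2, beside 2.93% of all genes. Tfrc was lower in GB20 by a difference of -9.39% with a 95% interval from -17.8% to -0.167% (adjusted p = 0.9999), and its libraries did not overlap. Slc11a2 differed by -12.49% with a 95% interval from -21.4% to -2.58%, and its libraries, 59.7 to 66.6 CPM in GB20 and 66.5 to 77.5 CPM in GV16, touched. Slc40a1 was the other of the 2 genes without overlap, beside 8.34% of all genes. The correlation of log2 fold change with exon length was -0.348 here, and with that trend removed the log2 fold changes of Tfrc, Slc11a2 and Slc40a1 were -0.14, -0.18 and -0.19. For Cp the interval of the difference between the acupoints was narrow, from -11.2% to 7.76%.

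**Figure D3:**
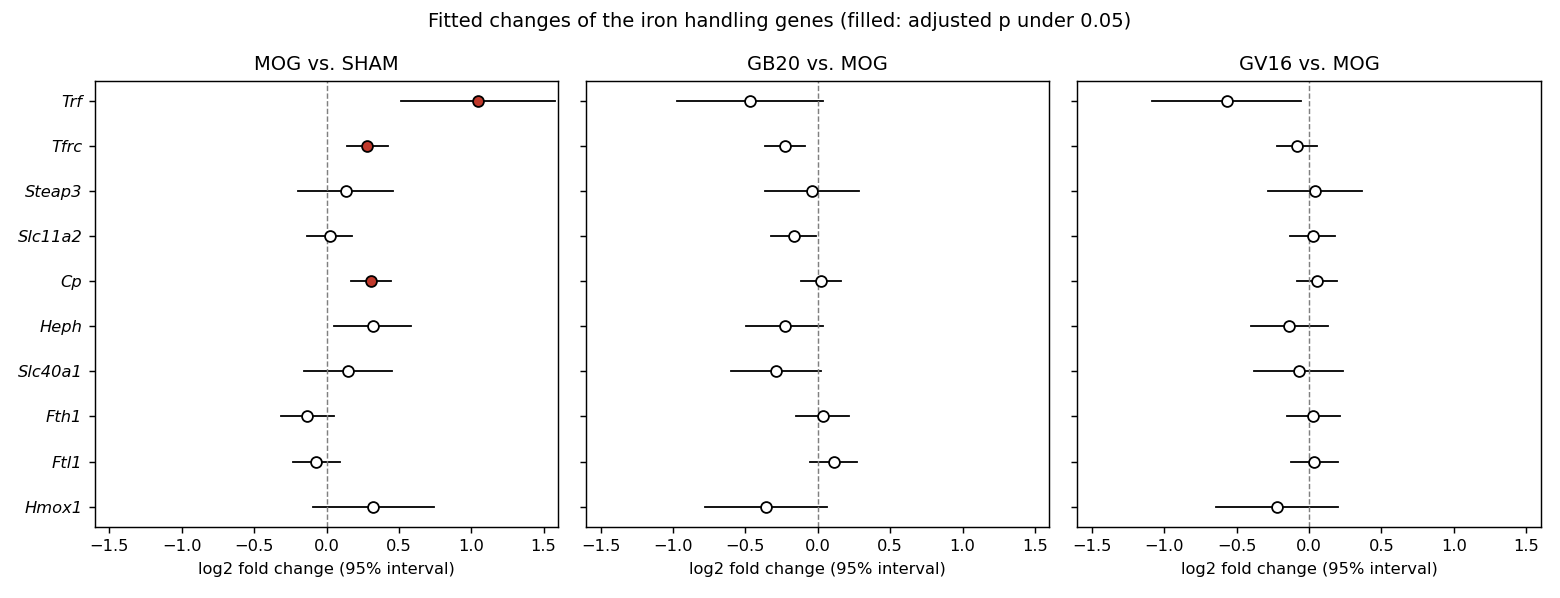
Fitted log2 fold changes (horizontal axes) of the 10 iron handling genes with 95% intervals in 3 comparisons, given above each panel, from edgeR over 12 libraries. Filled points mark an adjusted p under 0.05, which Trf, Tfrc and Cp reach in MOG vs. SHAM (1.04, 0.28 and 0.31) and no gene reaches in the other panels.

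The transferrin receptor and ferritin are the classical opposite targets of the iron regulatory proteins, so their ratio was taken in each library, as Tfrc FPKM over the summed FPKM of Fth1 and Ftl1. The ferritin hairpins act on translation, which RNA-seq does not see. This mRNA ratio is therefore not a measure of the activity of these proteins or of the iron in the cells. The ratio was 0.0607, 0.0501 and 0.0744 in SHAM and 0.0771, 0.0792 and 0.0858 in MOG. All MOG libraries lay above the SHAM libraries, but SHAM was widely spread (means 0.0617 ± 0.0122 and 0.0807 ± 0.0045, SD, n = 3). GB20 libraries had ratios of 0.0689, 0.0631 and 0.0684, below all MOG libraries and within the SHAM range. GV16 libraries lay between, with 0.0697, 0.0726 and 0.0811, and overlapped MOG. The 2-sided exact permutation p was 0.1 for MOG vs. SHAM, for GB20 vs. MOG and for GB20 vs. GV16, which is the smallest value that 3 libraries against 3 can give (0.4 after Benjamini-Hochberg adjustment over 12 tests of ratios), so this design could not reach 0.05. For GV16 vs. MOG the exact p was 0.3. Tfrc has longer exons (6185 bases) than Fth1 (3469 bases) and Ftl1 (1340 bases), so the length trend given for Tfrc bears on this ratio. The correlation of log2 fold change with exon length was 0.343 in MOG vs. SHAM and -0.366 in GB20 vs. MOG. In GB20 vs. GV16 it was -0.348 and in GV16 vs. MOG -0.145. The ratio was not taken with that trend removed, so the part of the trend in it was not tested.

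Heavy and light chains build the same shell, and their ratio sets how fast ferritin takes up iron. Fth1 exceeded Ftl1 in FPKM 7.17 ± 0.51-fold in SHAM, 6.88 ± 0.20-fold in MOG, 6.55 ± 0.37-fold in GB20 and 6.86 ± 0.24-fold in GV16 (SD, n = 3). All 4 groups overlapped, and the exact permutation p lay between 0.2 and 1.0 over the 6 comparisons. Of the exonic bases of Ftl1, 34.6% overlap other genes, and of those of Fth1 0%. Reads in such bases may have been counted for neither gene, so the size of this ratio may be overstated.

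**Figure D4:**
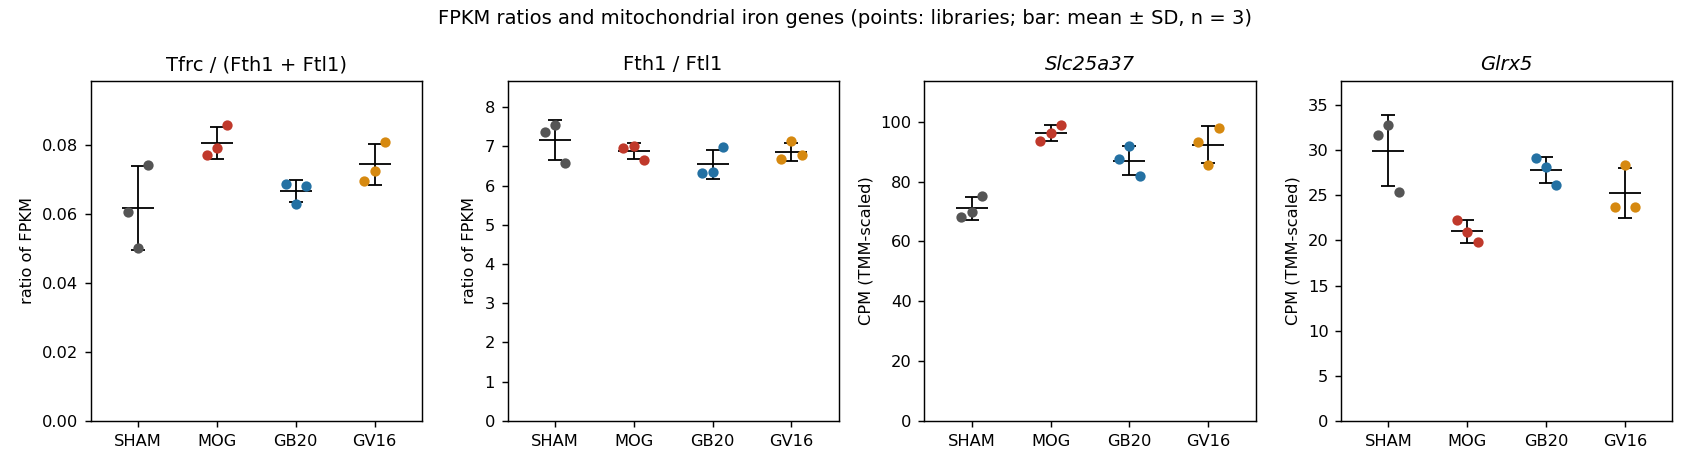
Ratio of Tfrc to ferritin and of Fth1 to Ftl1 (FPKM), and CPM of Slc25a37 and Glrx5, in the 12 libraries (points) with mean and SD of each group, all axes from 0. The Tfrc to ferritin ratio of the 3 MOG libraries lies between 0.0771 and 0.0858, above SHAM and GB20, and Slc25a37 lies between 68.2 and 75.3 CPM in SHAM and at 81.9 CPM or more in all other libraries.

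To place the 10 genes in the wider iron pathway, 106 further genes in 5 lists were followed, of which 98 were tested: other uptake genes (14 tested), iron sensing, hepcidin signaling and ferritin turnover (20), mitochondrial iron import and iron-sulphur cluster assembly (25), heme synthesis, transport and breakdown (21), and genes of oxidative defence and ferroptosis (18). In MOG vs. SHAM, 1 of the 98 was called higher and 1 lower, which is close to the 1.34% called among all genes, and both are in the mitochondrial list. The uptake list had a median log2 fold change of 0.24 with 11 of 14 genes above 0 and none called, and the mitochondrial list one of -0.08 with 4 of 25 above 0. The other lists had medians between -0.05 and -0.02. In GB20 vs. MOG the mitochondrial list had a median of 0.07 with 20 of 25 genes above 0. The median of all genes was -0.002 in MOG vs. SHAM and 0.0008 in GB20 vs. MOG, and both comparisons share the MOG libraries. The correlation of log2 fold change with exon length was 0.343 and -0.366 in these comparisons. No list median was taken with that trend removed, so its part in these medians was not tested. Against MOG, edgeR called 0 of the 98 in GB20 and 0 in GV16, with 8 and 3 at an unadjusted p under 0.05 (8% and 5.3% of all genes), and DESeq2 on the 6 libraries called 2 and 0. Between the acupoints both tools called 0 of the 98, with 5 at an unadjusted p under 0.05 (2.93% of all genes).

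Slc25a37 encodes mitoferrin-1, which imports iron into mitochondria. It had 68.2, 69.7 and 75.3 CPM in SHAM and 93.7, 96.2 and 98.8 CPM in MOG. The groups were far apart (log2 fold change 0.44 ± 0.07, SE, adjusted p = 0.00169), and the call held in all 25 alternatives, including each of the 12 libraries left out. In GV16 it was also higher than in SHAM, with 93.2, 85.7 and 98.1 CPM (log2 fold change 0.38, adjusted p = 0.0109), a call lost without SHAM replicate 1 (0.103) or GV16 replicate 3 (0.144), and in 4 of 13 other alternatives. In GB20 it had 87.5, 91.8 and 81.9 CPM, all above SHAM, and was not called (log2 fold change 0.29, adjusted p = 0.0828), but it was called in 5 of 25 alternatives, with adjusted p down to 0.0174. Neither needled group was called against MOG (adjusted p = 0.63 in GB20 and 0.998 in GV16).

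Glrx5, which hands on iron-sulphur clusters in mitochondria, was lower in MOG. It had 31.7, 32.8 and 25.4 CPM in SHAM and 22.3, 20.9 and 19.8 CPM in MOG, without overlap (log2 fold change -0.51 ± 0.10, SE, adjusted p = 0.0101). This call was lost without SHAM replicate 1 (adjusted p = 0.0677), MOG replicate 2 (0.0695) or MOG replicate 3 (0.101), and in 3 of 13 other alternatives. GB20 libraries had 29.1, 28.1 and 26.2 CPM, all above MOG, a difference that edgeR over 12 libraries did not call (log2 fold change 0.41 ± 0.10, SE, adjusted p = 0.178) and that was called in 5 of 25 alternatives, among them DESeq2 (0.0417) and edgeR (0.0303) on the 6 libraries. GV16 libraries had 23.7, 28.4 and 23.7 CPM and were not called against MOG (adjusted p = 0.82). Isca2, another gene of cluster assembly, was also lower in MOG without being called (27.1 ± 4.2 CPM in SHAM and 21.5 ± 0.2 CPM in MOG, SD, n = 3, adjusted p = 0.117).

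The remaining genes with the smallest p in their comparison were not called by edgeR over 12 libraries. In GB20 vs. MOG these were Id1, a target of the BMP signaling that drives hepcidin (5.41 CPM in MOG and 8.73 CPM in GB20 on average, adjusted p = 0.236), and Lrp1, a receptor that clears heme bound to hemopexin (229.8 and 186 CPM, adjusted p = 0.273). Id1 was called in 2 and Lrp1 in 4 of 25 alternatives, with adjusted p down to 0.00871 and 0.0133. The log2 fold change of Lrp1 was -0.30, and lay between -0.31 and -0.21 in the alternatives other than a library left out. In GV16 vs. MOG they were Slc39a8, a metal importer (2.29 CPM in MOG and 1.36 CPM in GV16, adjusted p = 0.739), and Flvcr2 (1.90 and 1.23 CPM, adjusted p = 0.921). In GB20 vs. GV16 they were Scara5, a receptor for ferritin (2.14 CPM in GB20 and 3.41 CPM in GV16), Blvrb, a biliverdin reductase (3.98 and 2.87 CPM), and Flvcr2 again (1.91 and 1.23 CPM), each with an adjusted p of 0.9999. Most of these lay at a few CPM.

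The genes whose log2 CPM followed the called genes most closely over the 12 libraries were named by Pearson correlation among 16050 genes with a mean of at least 1 CPM. The 12 libraries share the 4 group means, so these values are a description. Most like Cp were Antxr2 (r = 0.93), Ecel1 (0.92), Timp3 (0.90), Ahr (0.90) and Plin4 (0.89). Most like Tfrc were Trim9 (0.95), 1700109H08Rik, Ufl1, Slc35g1 and Nyap2 (0.92 each). Most like Trf were E530001F21Rik (0.90), Csf3r (0.88), Lrat (0.87), Kirrel2 and Oat (0.82 each). Fth1, which was not called, was followed by Polr2i (0.94), Pdap1, B4gat1, P4htm and Znrd1 (0.90 to 0.92). Among the 10 genes themselves, Tfrc went with Heph (r = 0.72) and Slc11a2 with Slc40a1 (0.78), and Fth1 went with Ftl1 (0.75) and against Tfrc (-0.54) and Cp (-0.52).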

How the data were processed

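Polyadenylated retinal RNA of 12 libraries had been sequenced in pairs, aligned by the authors with HISAT2 2.0.5 to mm10, as their processing notes name them, and counted per gene with FeatureCounts. The authors deposited the whole-number counts without normalization, and FPKM values that they computed from gene length and counts. Annotation release, strand setting and the handling of multiply aligned reads: not given in the sources used here. Gene names came from GENCODE vM21, which held 54495 of 54532 identifiers.

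The counts were fitted with edgeR 4.0.16 in R 4.3.3 (filterByExpr, TMM, robust quasi-likelihood fit of 12 libraries with 1 mean per group, 8 residual degrees of freedom). The alternatives used DESeq2 1.42.0 and limma 3.58.1, other scalings, no filter, removal of the length trend, a replicate block, log2(FPKM + 1) or log2(FPKM + 0.1), and each library left out. The fits were tested on simulated data. Ratios were tested by exact permutation. Plots were made in matplotlib 3.10.9 (Python 3.11.15). Groups came from the sample titles. Named were the 10 genes, further iron genes called in any comparison or among the 3 smallest p in each of the first 4, and the 5 genes most like each called gene and Fth1. The genes and lists were chosen with earlier results of these data known. The study's methods call the 3 libraries of a group biological replicates, and do not say whether each came from separate mice. Protein sequences were not used here.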

Additional observations from a re-analysis of the deposited data

How the results depend on the processing

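Of 768 log2 fold changes of the 10 genes in the 6 comparisons, under alternatives other than a library left out, 747 kept their direction and their side of the threshold, 17 lost a call, 1 gained one and 3 changed sign. The 3 were Slc11a2 in MOG vs. SHAM with the length trend removed (-0.00041) and Fth1 in GB20 vs. GV16 with that trend removed (-0.015) and with a replicate block besides (-0.014). With 1 library left out, 663 of 720 kept both, 24 lost a call and 33 changed sign, and all 33 belong to differences that had not been called. Their log2 fold changes then ranged, without any 1 library, in MOG vs. SHAM from -0.0040 to 0.054 for Slc11a2, and in GB20 vs. MOG from -0.026 to 0.062 for Cp, -0.18 to 0.034 for Steap3 and -0.032 to 0.074 for Fth1, and in GV16 vs. MOG from -0.074 to 0.11 for Steap3, -0.039 to 0.073 for Slc11a2, -0.037 to 0.068 for Fth1, -0.0091 to 0.065 for Ftl1 and -0.12 to 0.00037 for Slc40a1, and in GB20 vs. GV16 from -0.13 to 0.28 for Trf, -0.079 to 0.0059 for Cp, -0.19 to 0.010 for Heph and -0.036 to 0.030 for Fth1, and in GB20 vs. SHAM from -0.012 to 0.19 for Heph, -0.048 to 0.18 for Steap3, -0.20 to 0.0027 for Fth1, -0.024 to 0.10 for Ftl1 and -0.22 to 0.082 for Hmox1, and in GV16 vs. SHAM from -0.016 to 0.093 for Slc11a2, -0.083 to 0.027 for Ftl1 and -0.079 to 0.22 for Hmox1.

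The 3 calls of the 10 genes in MOG vs. SHAM, and the 1 call in each needled group vs. SHAM, came to 0 with edgeR on the 6 libraries of a comparison and with limma on log2(FPKM + 1) or log2(FPKM + 0.1), and GB20 vs. SHAM also to 0 with limma at a mean of at least 1 FPKM. The cause was not tested. Without any 1 library the calls ranged from 0 to 3 in MOG vs. SHAM and from 0 to 1 in each needled group vs. SHAM. GB20 vs. MOG gained 1 call (Tfrc) with DESeq2 on the 6 libraries.

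Counts of all genes called, taken in the order GB20 vs. SHAM, GV16 vs. SHAM, MOG vs. SHAM, GV16 vs. MOG, GB20 vs. MOG, GB20 vs. GV16, were 63, 120, 245, 30, 44 and 1 as reported. They were 147, 202, 322, 41, 50 and 5 with DESeq2 on 12 libraries, 121, 126, 236, 57, 119 and 4 with DESeq2 and 66, 66, 196, 48, 118 and 3 with edgeR on the 6 libraries, 61, 108, 227, 14, 37 and 2 with limma-voom, 282, 395, 539, 73, 140 and 8 without the filter and 126, 161, 338, 35, 52 and 1 with the length trend removed. With limma they were 5, 4, 55, 10, 14 and 2 on log2(FPKM + 1), 7, 9, 59, 11, 16 and 3 on log2(FPKM + 0.1) and 3, 20, 92, 5, 16 and 0 at a mean of at least 1 FPKM. Without any 1 library they ranged from 14 to 116, from 23 to 231, from 91 to 427, from 10 to 38, from 13 to 83 and from 0 to 4, in the same order.

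A replicate block gave 182, 236, 404, 47, 73 and 1 calls, and the block with the length trend removed 244, 307, 486, 66, 94 and 1. The block changed no call of the 10 genes and called Glrx5 in GB20 vs. MOG (adjusted p = 0.0487) and Slc25a37 in GB20 vs. SHAM. The study's methods state 3 repeats of the experiment, but the labels do not say that a replicate number marks a repeat, so the numbers were not treated as pairs. Same-numbered libraries of different groups correlated between -0.13 and 0.48 in their deviations from the group means, against -0.48 to 0.27 for other pairs, and 10 of 12 libraries correlated best with 1 of their own number, a hint from the data and not from the design. Without any 1 library the log2 difference of the Tfrc to ferritin ratio lay between 0.26 and 0.54 in MOG vs. SHAM. In GB20 vs. MOG it lay between -0.30 and -0.23. In GB20 vs. SHAM it changed sign, from 0.11 to -0.016 without SHAM replicate 2. The difference of Fth1 to Ftl1 in GV16 vs. MOG also changed sign, from -0.0038 to 0.015 without GV16 replicate 1. In CPM the Tfrc to ferritin differences in MOG vs. SHAM and GB20 vs. MOG were 0.38 and -0.28. The Fth1 to Ftl1 ratio in CPM differs from that in FPKM only by a constant, so it is no separate check. Depth limits Trf, Hmox1, Slc40a1, Steap3 and Heph most, with 21 to 199 counts per library.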
